A study of Mus musculus with 2 samples.

Results

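The genes described here are the interleukins, the secreted signals by which leukocytes instruct each other, and the chains of the receptors that read them. Members were the genes of the deposited table with a single platform gene symbol that starts with Il and a digit, without Il4i1, and each gene was represented by its probe set with the highest mean over both arrays. This gave 78 of the 22180 genes measured, of which 37 encode ligands, 36 receptor chains and 4 antagonists or binding proteins (Il1rn, Il1f5, Il18bp and Il22ra2). The remaining member, Il1bos, is a transcript named for the strand opposite Il1b. The common gamma chain gene Il2rg had no probe set with that symbol alone, so it is not among the members. Some receptor chains without an Il symbol, such as Csf2rb, are described beside them.

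Both groups were spleen cells of Fx-/- mice. The Fx gene, now called Gfus, is needed to make GDP-fucose from mannose, so such mice take the fucose for their glycans from what they are given. The on-fucose group was fucose-treated and the off-fucose group had no fucose treatment, with 1 array per group and 9 ng of total RNA labelled for each. The cells were labelled cDC1, the conventional dendritic cells that cross-present antigen, after removal of cells with B220 or CD11b and selection of cells with CD11c. Age, strain background, number of animals and fucose dose are not given in the sources used here, and no array of mice with a working Fx gene was used.

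Both arrays gave linear intensities for 41345 probe sets, with medians of 6.99 on fucose and 7.04 off fucose, and log2 was taken of each. With 1 array per group there is no replicate error, no test and no p-value, and their number limits the precision. A difference is always the off-fucose log2 intensity minus the on-fucose one. Set against markers, the label cDC1 did not describe all of the signal. The T cell list had 9 of its 11 genes measured, at 7.17 to 11.20 on fucose and 6.85 to 11.05 off fucose, while 8 of 9 cDC1 genes were measured, at 2.90 to 6.02 and 3.43 to 8.36, with the lowest values in Xcr1. The arrays also differed in Xist (8.26 and 2.82) and in the Y-linked Uty (2.14 and 5.26), so the sex of the cells and fucose supply cannot be told apart.

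Interleukins act over short distances and are mostly made on stimulation, whereas resting lymphocytes carry many of the receptors. Receptors are shared: several cytokines signal through the common gamma chain, gp130 (Il6st) serves the IL-6 family, and pairs of chains bind Janus kinases that activate STAT transcription factors. The IL-1 and IL-17 families signal through other adaptors towards NF-kappaB. Chains of many of these receptors carry glycans that can hold fucose.

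Upstream sequences are given for the 2 members that differed by at least 2-fold, Il1b and Il23r, and for Il6st. Among the receptors with high signal on both arrays for which such a sequence was found, Il6st had the most negative difference. The sequences are the 250 bases before the gene's start in RefSeq (build GRCm38.p6), written 5′ to 3′ on the strand of the gene, with motif matches in capitals. The motifs searched on both strands were TATAAA (the TATA box), TTCNNNGAA (a STAT element), GGGANTTTC (part of a kappaB element) and GAGGAA (a core bound by PU.1 and related ETS factors). Il1b lies on the minus strand at chr2:129371140-129371389, Il23r on the minus strand at chr6:67491856-67492105 and Il6st on the plus strand at chr13:112463820-112464069.
Il1b: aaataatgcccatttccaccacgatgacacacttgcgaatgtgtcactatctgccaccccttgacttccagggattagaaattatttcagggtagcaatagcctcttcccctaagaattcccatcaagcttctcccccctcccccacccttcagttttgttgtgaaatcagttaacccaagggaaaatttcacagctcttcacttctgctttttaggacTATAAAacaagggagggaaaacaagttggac
Il23r: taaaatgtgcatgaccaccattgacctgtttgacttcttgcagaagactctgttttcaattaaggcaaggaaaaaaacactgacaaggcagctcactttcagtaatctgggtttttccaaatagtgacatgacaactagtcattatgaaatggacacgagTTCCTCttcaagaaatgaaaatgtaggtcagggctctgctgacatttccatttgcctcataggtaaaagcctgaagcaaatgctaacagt
Il6st: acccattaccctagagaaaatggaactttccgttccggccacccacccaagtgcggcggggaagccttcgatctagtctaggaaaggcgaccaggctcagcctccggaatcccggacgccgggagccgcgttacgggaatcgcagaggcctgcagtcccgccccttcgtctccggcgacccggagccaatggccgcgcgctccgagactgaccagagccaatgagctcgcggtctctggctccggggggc
The Il1b window held TATAAA from 31 to 26 bases before the start. The Il23r window held TTCCTC, the reverse complement of GAGGAA, 90 to 85 bases before the start. No letters of the 4 motifs were found in the Il6st window, and the matches did not overlap. RefSeq windows were found for 61 of the 78 members (74 windows, since some genes have several starts). TATAAA was in 17.6% of these and in 12.4% of all 32851 windows, TTCNNNGAA in 12.2% and 7.02%, GGGANTTTC in 2.70% and 0.941%, and GAGGAA in 27.0% and 23.3%. These matches are descriptions of letters and not of bound sites.

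Receptor chains with high signal had lower values off fucose. In 9 receptor genes the mean log2 intensity was at least 8, and in all 9 the off-fucose value was the lower one as deposited, by 0.05 in Il4ra to 0.68 in Il2rb, with a median of -0.40. Among all 1080 genes of that level 63.0% had a negative difference, and their median was -0.06. With the differences centred on the T cell list, 7 of the 9 were still negative, and Il4ra (0.19) and Il6ra (0.0087) turned positive. Loess of the difference on intensity also turned Il4ra, to 0.01. The level of 8 was chosen with the values known.

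The common gamma chain receptors made up 4 of these 9. Il2rb, the beta chain through which IL-2 and IL-15 signal, had 9.68 on fucose and 9.00 off fucose. This is a 1.61-fold lower value off fucose, and it was the only one of the 9 to pass 1.5-fold, where 1.76% of genes of that level were at least 1.5-fold lower. With T cell centring it was -0.44, and none of the 9 passed. Il7r, which naive T cells need to survive, had 9.87 and 9.52. Il21r, the receptor of the helper T cell cytokine IL-21, had 8.70 and 8.45. Il4ra, shared by the IL-4 and IL-13 receptors, had 9.25 and 9.20, the smallest of the 9 differences.

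The other chains of that receptor family had lower signal. Il2ra, the high-affinity IL-2 chain carried by regulatory and activated T cells, had 6.69 on fucose and 6.40 off fucose (-0.28), beside Foxp3, the factor of regulatory T cells, at 6.65 and 6.60. In the regulatory T cell list 5 of 6 genes, Foxp3 included, were lower off fucose with a median of -0.18. Ctla4 was higher (4.65 and 4.94), and T cell centring gave 2 of 6 lower and a median of 0.06. Il15ra, which presents IL-15 to neighbouring cells, had 3.77 and 3.72. Il9r, the IL-9 receptor, had 2.83 and 2.95, near the medians of all genes (2.88 and 2.91). Across the family, 6 of 7 differences were negative and the median was -0.25, where 50.0% of all genes had a negative difference. With T cell centring 4 of 7 were negative and the median was -0.0076.

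The IL-6 receptor chains Il6ra and Il6st had the highest signals among the members. Il6ra, which binds IL-6, had 10.34 on fucose and 10.10 off fucose (-0.23). Il6st, the gp130 chain that signals for it, had 10.18 and 9.78 (-0.40). Il27ra, which pairs with gp130 to read IL-27, had 8.79 and 8.39 (-0.40). Probe sets respond differently, so such an order of genes is a description and not a ranking of transcript amounts.

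Il23r had the largest positive difference among the receptors. It encodes the chain that makes a receptor for IL-23, a cytokine that sustains T cells and innate lymphoid cells that make IL-17, and it had 2.65 on fucose and 3.88 off fucose. The difference of 1.22 (2.34-fold higher off fucose) was the only one of the 36 receptor genes to reach 2-fold in either direction. Over all 22180 genes, 1.20% were at least 2-fold higher off fucose and 0.257% at least 2-fold lower. The on-fucose value lay below the median of all genes, where a probe set may no longer follow the transcript, so the fold is a ratio of intensities and no more. With 16 added to each intensity before log2, the difference was 0.46 and no receptor reached 2-fold.

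The partner chain and the neighbouring gene of Il23r had smaller differences. Il12rb1, the chain common to the IL-12 and IL-23 receptors, had 4.06 on fucose and 4.09 off fucose. Il12rb2, which completes the IL-12 receptor and is the next protein-coding gene to Il23r in the RefSeq order, had 3.66 and 3.37 (-0.29). The cytokines that IL-23 is known to sustain had low values on both arrays, with Il17a at 2.88 and 2.99, Il17f at 2.65 and 2.40 and Il22 at 2.17 and 2.39. Il31ra, another receptor of the gp130 type, had the identical value of 2.82 on both arrays.

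**Figure D1:**
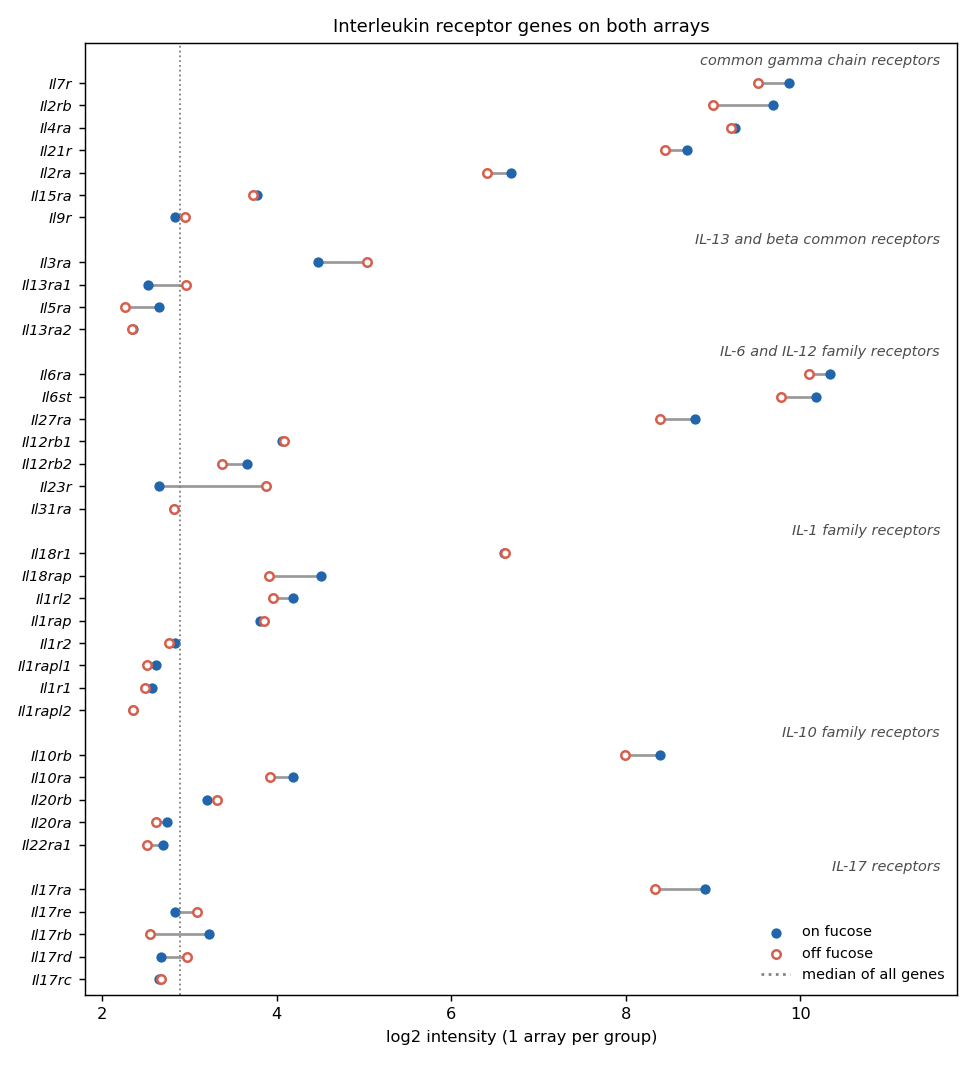
Log2 intensity of the 36 interleukin receptor genes by family, with the on-fucose array as filled and the off-fucose array as open circles, 1 array per group, and the median of all genes as a dotted line. The 9 genes with a mean of at least 8 all have the open circle on the left as deposited (Il4ra and Il6ra change side when differences are centred on the T cell list, and Il4ra also with loess), while Il23r and Il3ra have it on the right.

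Il3ra was higher off fucose together with the chains it pairs with. Il3ra, the alpha chain of the IL-3 receptor on basophils and progenitors, had 4.47 on fucose and 5.03 off fucose (0.55, 1.47-fold). The common beta chain gene Csf2rb had 2.93 and 3.67, and Csf2rb2, the beta chain particular to IL-3 in mice, had 4.29 and 5.73 (1.43). These are near-identical copies, and how the platform's probes separate them is not known here. Csf2ra, the alpha chain for GM-CSF, had 3.17 and 4.62 (1.45).

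Markers of cells known to carry the IL-3 receptor were mostly higher off fucose too. All 7 genes of the basophil and mast cell list were higher off fucose, with summed intensities of 113.6 on fucose and 1124 off fucose. Of the 6 progenitor genes 4 were higher, with sums of 484.8 and 560.7, or 83.3 and 267.8 without Cd27, which T cells also express and which was lower (8.65 and 8.19). The blood cell transcription factor gene Gfi1b had 3.65 and 6.87, and the stem cell factor receptor gene Kit had 5.72 and 6.75. Fewer or more cells of a type and less or more RNA per cell cannot be told apart in bulk RNA, and the part of these markers in the Il3ra value was not tested. Il5ra, the eosinophil receptor for IL-5 that uses the same beta chain, had 2.65 on fucose and 2.25 off fucose (-0.40). All 4 eosinophil genes were higher off fucose, with sums of 24.8 and 265.5, mostly from Prg2 (3.13 and 7.93), while Siglecf (2.59 and 2.74) and Ccr3 (2.30 and 2.33) lay below the medians of all genes. Il13ra1, which joins Il4ra to read IL-4 and IL-13 in myeloid cells, had 2.53 and 2.95 (0.43), and the decoy Il13ra2 had 2.35 and 2.34.

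The IL-18 receptor chains had unlike differences. Il18r1, which binds IL-18, had 6.60 on fucose and 6.61 off fucose. Il18rap, the accessory chain needed for signalling and the neighbouring gene, had 4.51 and 3.91, a 1.51-fold lower value off fucose. In all, 3 of 36 receptor genes were at least 1.5-fold lower off fucose (Il2rb, Il18rap and Il17rb), where the share over all genes was 2.28%, and 1 was at least 1.5-fold higher (Il23r), where it was 3.21%. The 3 lower calls are of the values as deposited. With T cell centring none of them passed 1.5-fold (Il2rb -0.44, Il18rap -0.35, Il17rb -0.43), and Il3ra (0.80) and Il13ra1 then passed it upwards. Il3ra also passed it upwards with loess (0.64) and quantile normalisation (0.62). Il18rap also lay inside 1.5-fold with loess and quantile normalisation (-0.52 each) and with 16 added to each intensity (-0.32), as Il17rb (-0.21) did with that offset. NK cells carry both chains, and 5 of the 6 genes of the NK and innate lymphoid list were lower off fucose, with summed intensities of 364.9 and 246.0. Most of these sums came from Prf1, which T cells also express, and without it they were 91.7 and 71.9. Klrb1c (2.99 and 2.49) and Gzma (3.19 and 2.79) were near the medians of all genes, the NK receptor gene Ncr1 (3.03 and 3.60) was the one higher off fucose, and the part of these cells in the Il18rap value was not tested.

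Receptors for IL-1 itself had little signal. Il1r1, the signalling receptor, had 2.57 on fucose and 2.49 off fucose, and the decoy Il1r2 had 2.83 and 2.77. Il1rl2, the receptor for IL-36 cytokines on dendritic cells, had 4.18 and 3.96 (-0.23). Il1rap, the accessory chain of the family, had 3.81 and 3.85 on the probe set that represents it. It was the only member with several probe sets, and of the other 2 one had 2.40 and 2.46 and the other 2.36 and 3.03 (0.66). The neuronal relatives Il1rapl1 and Il1rapl2 had differences of -0.10 and 0.00.

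Il10rb and Il17ra, which each serve several receptors, belonged to the 9 genes with high signal. Il10rb, the chain common to the receptors of IL-10, IL-22 and type III interferon, had 8.39 on fucose and 7.99 off fucose (-0.40). Il10ra, which gives specificity for IL-10, had 4.19 and 3.93 (-0.26). Il17ra, the chain shared by the IL-17 receptors, had 8.91 and 8.33, a 1.49-fold lower value just inside 1.5-fold. Its partner Il17rc had 2.65 and 2.68.

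The other chains of these families lay close to the medians of all genes. Il17rb, which binds IL-25, had 3.22 on fucose and 2.55 off fucose (-0.67). Il17rd had 2.67 and 2.97 and Il17re had 2.84 and 3.09. Il20rb, Il20ra and Il22ra1, chains known mainly from epithelial cells, had differences of 0.12, -0.13 and -0.19. In this range the values of both arrays approach the lowest intensities measured.

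**Figure D2:**
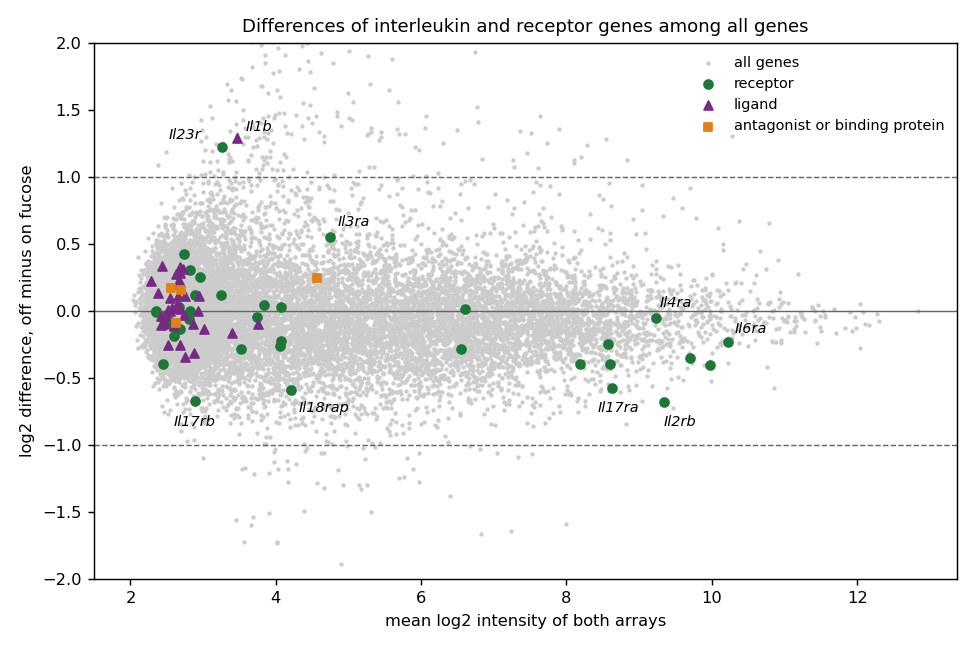
Difference in log2 intensity (off minus on fucose) against the mean log2 intensity of both arrays, with all genes in grey, receptors as green circles, ligands as purple triangles and antagonists as orange squares. Dashed lines mark 2-fold, and 90 genes that are no members lie beyond the limits of 2 on the vertical axis. Il1b and Il23r are the only members outside the dashed lines, and the receptors on the right lie below 0 as deposited (Il4ra and Il6ra above it with T cell centring, Il4ra also with loess).

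Ligand genes mostly had values near the lowest intensities of the arrays. Of the 37 ligands, 28 (75.7%) lay below the median of all genes on both arrays, against 45.6% of all genes. Only Il1b, Il16 and Il27 had a mean among the top 40% of genes (a mean log2 of 3.26 or more). The values of all ligands ran from 2.17 to 3.80 on fucose and from 2.37 to 4.11 off fucose. Their median difference was 0.01, beside -0.0008 over all genes.

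Il1b was the ligand with the largest difference. It encodes the IL-1 beta precursor, made by activated monocytes, macrophages, neutrophils and dendritic cells, and had 2.82 on fucose and 4.11 off fucose. The difference of 1.29 (2.44-fold higher off fucose) made it the only one of the 37 ligands past 2-fold in either direction, with 1.20% of all genes at least 2-fold higher. Its on-fucose value lay below the median of all genes (2.88), and with 16 added to each intensity the difference was 0.53. Il1a, its neighbour in the genome and the other agonist of the same receptor, had 2.49 and 2.46, and the receptor antagonist gene Il1rn had 2.68 and 2.58. The opposite-strand transcript Il1bos had 2.47 and 2.36.

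Markers of myeloid cells were mostly higher off fucose beside Il1b, but those of mature and of plasmacytoid dendritic cells were mostly lower as deposited. All 8 neutrophil precursor genes were higher, with summed intensities of 99.4 on fucose and 2903 off fucose, and all 7 monocyte and macrophage genes measured, with 1439 and 2120, mostly from Ly6c2, which T cells also express. Among the latter, Lyz2, the lysozyme gene of phagocytes, had 3.60 and 6.63, while Adgre1 (2.56 and 2.79), which encodes the macrophage marker F4/80, and Cd14 (2.75 and 2.97) stayed near the medians. Without Ly6c2 the sums of the latter list were 50.8 and 225.0. Of 8 cDC1 genes 7 were higher, with sums of 212.1 and 637.2, and of 6 cDC2 genes 5, with 47.1 and 113.8. The list of mature dendritic cells went the other way as deposited, with 5 of 6 genes lower off fucose and a median of -0.32. In it the actin-bundling gene Fscn1 had 4.66 and 3.15 (-1.51). The sums of 693.1 and 594.4 came mostly from Ccr7 (9.30 and 9.12). Ccl17 and Socs2 lay below the medians of all genes on both arrays. T cell centring gave 3 of 6 genes lower and a median of -0.08. Of the 4 plasmacytoid dendritic cell genes 3 were lower off fucose as deposited, with a median of -0.08, and Tcf4 was higher (3.58 and 3.99). With T cell centring 0 of these 4 were lower and their median was 0.16. The part of all these cells in the Il1b value was not tested.

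Genes that act with Il1b differed less. Casp1, the protease that cuts the precursor, had 3.36 on fucose and 3.94 off fucose (0.58), just inside 1.5-fold. Nlrp3, a sensor that activates it, had 3.08 and 3.21, the adaptor Pycard had 8.81 and 8.82, and Gsdmd, the pore through which the cytokine leaves, had 5.45 and 5.56. The adaptor Myd88 had 7.16 and 7.22. Of the 16 measured genes of IL-1 and IL-18 signalling none was 1.5-fold apart in either direction as deposited, 10 were higher and 6 lower, and the median was 0.02. With T cell centring 14 were higher and 2 lower, with a median of 0.27, and Casp1 and Irak3 passed 1.5-fold upwards.

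The remaining IL-1 family ligands differed by at most 0.28 in size. Il18, whose product is also cut by caspase-1, had 2.54 on fucose and 2.82 off fucose (0.28), and its inhibitor gene Il18bp had 4.45 and 4.69 (0.25). The alarmin Il33 had 2.50 and 2.40. The IL-36 genes Il1f6, Il1f8 and Il1f9 ran from -0.10 to 0.01, their antagonist Il1f5 had 0.16, and Il1f10 had -0.14. Il22ra2, the soluble decoy for IL-22, had 2.48 and 2.65.

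The cytokines of T helper cells had low values on both arrays. Il2, the growth factor of activated T cells, had 2.69 on fucose and 2.80 off fucose, and Il21 had 2.56 and 2.76. Il4 had 3.03 and 2.72 (-0.31) and its neighbour Il13 had 2.93 and 2.58 (-0.35), both lower off fucose and both signature cytokines of type 2 responses, basophils included. The third such cytokine, Il5, had 2.51 and 2.43. Il9 (0.33), Il13 (-0.35) and Il25 (0.32) had the differences of largest size among the ligands outside the top 40%.

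Il7 and Il15, made by stromal and myeloid cells to keep lymphocytes alive, had differences of -0.03 and -0.10. Il3, the ligand of Il3ra, had 2.49 and 2.45. Il16, which is expressed in resting T cells, had 3.80 and 3.70. Il34, a ligand of the Csf1 receptor, had 2.63 and 2.67.

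The cytokines by which dendritic cells direct T cells also had low values. Il12b, the subunit common to IL-12 and IL-23 and a product of activated cDC1, had the identical value of 2.93 on both arrays. Il12a had 2.61 on fucose and 2.71 off fucose, and Il23a had 2.49 and 2.76 (0.28). Il27 had 3.48 and 3.32 (-0.16), and Ebi3, whose product pairs with it, had 3.22 and 2.93. Il6 had 2.55 and 2.78, the anti-inflammatory Il10 had 2.57 and 2.88 (0.31), and the others of the IL-10 family ran from -0.25 in Il24 to 0.22 in Il22. Of the IL-17 family 5 of 6 differences were positive (4 of 6 with loess or quantile normalisation), with a median of 0.07. Among all 13308 genes with a mean outside the top 40%, where this family lies, 6988 differences were positive.

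**Figure D3:**
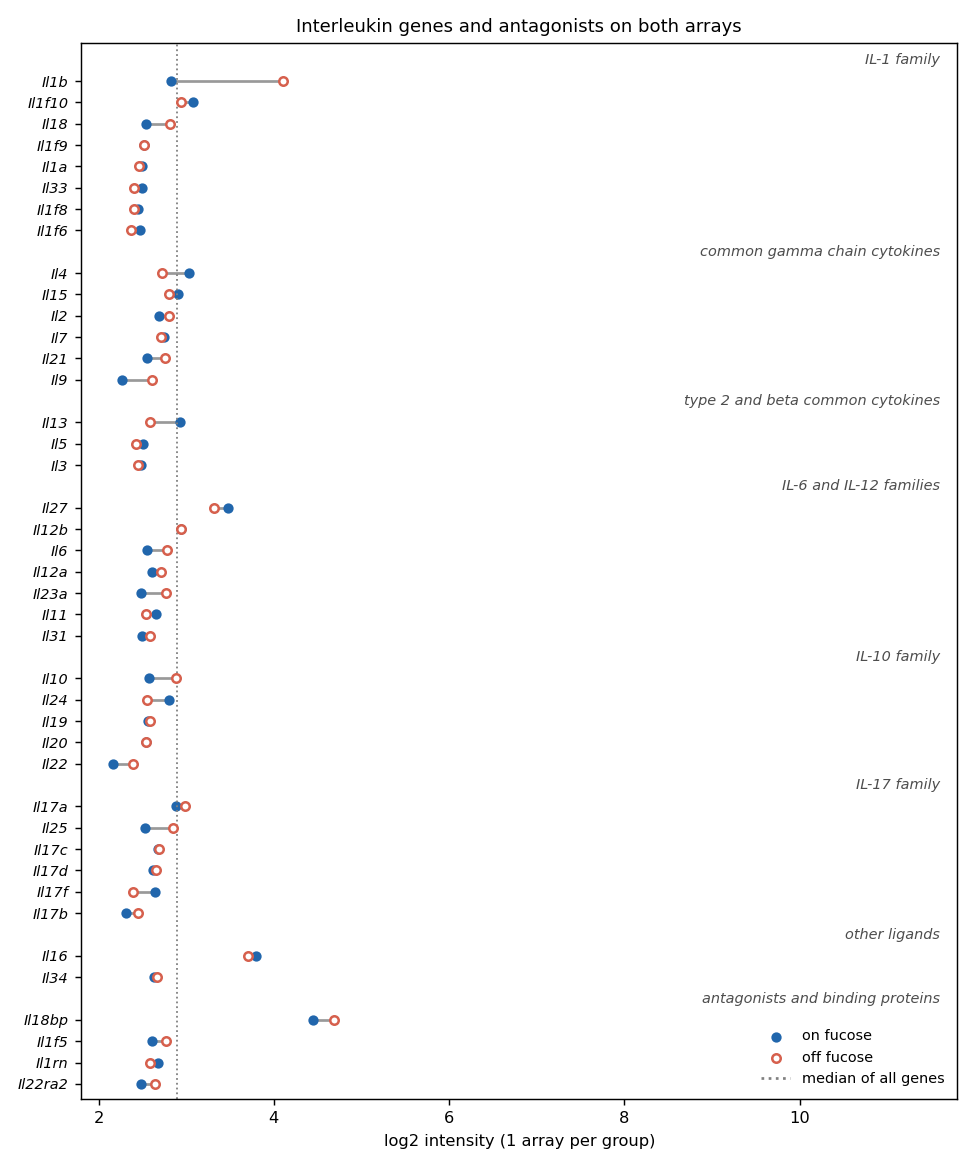
Log2 intensity of the 37 interleukin genes and 4 antagonists or binding proteins by family, with the on-fucose array as filled and the off-fucose array as open circles, 1 array per group, and the median of all genes as a dotted line. Most pairs of circles lie left of or close to the dotted line, and Il1b has the widest gap, from 2.82 to 4.11.

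Janus kinase and STAT genes, which carry receptor signals, had mostly negative differences of small size as deposited, a direction that turned with T cell centring. Of the 9 measured Janus kinase and STAT genes, 8 were lower off fucose with a median of -0.22, or 3 of 9 with a median of 0.02 after that centring. Of all 11090 genes with a mean at or above the median, 6269 were lower as deposited. Jak1, the kinase bound by most of these receptors, had 10.51 on fucose and 10.33 off fucose, Stat3, which acts for IL-6 and gp130, had 9.72 and 9.62, and Stat6, which acts for Il4ra, had 8.64 and 8.41. Stat5b had 7.68 and 7.56, whereas Stat5a, the second factor of the IL-2 and IL-3 receptors, had 4.74 and 5.18 (0.44). Stat2, which acts for type I interferon, had 6.54 and 5.80 (-0.74) and was the only gene of the list past 1.5-fold as deposited.

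Genes that restrain cytokine signalling did not differ by 1.5-fold. Their list holds STAT-induced inhibitors such as Cish, Socs1 and Socs3, and others, among them the constitutive Pias1 and Ptpn6. Cish, induced by STAT5, had 3.67 on fucose and 3.70 off fucose, Socs1 had 5.69 and 5.51, Socs3 had 3.22 and 3.03, and 11 of the 12 genes had negative differences with a median of -0.19, which T cell centring turned to 2 of 12 and 0.06. In IL-17 signalling the adaptor gene Traf3ip2 had 7.22 and 6.90, and Nfkbiz had 5.39 and 5.59. Among the 13 measured chains and cytokines without an Il symbol, Osm had 5.18 and 4.34 (-0.84) and Clcf1 had 5.35 and 4.62 (-0.73), both ligands of the gp130 group, and the inhibitory receptor gene Sigirr had 7.02 and 6.52 (-0.50).

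T cell markers differed in the same direction as the 9 receptors with high signal. Each of the 9 T cell genes measured had a lower value off fucose (8 of 9 with loess), with a median of -0.24, differences from -0.50 to -0.07, and summed intensities of 10680 on fucose and 8826 off fucose. The 9 receptors had summed intensities of 6500 and 5075. After centring on the T cell list their median was -0.15, with Il2rb at -0.44 and Il17ra at -0.34 as the most negative. The median over all genes becomes 0.24 with that centring. The part of T cell number in the receptor values was not tested.

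**Figure D4:**
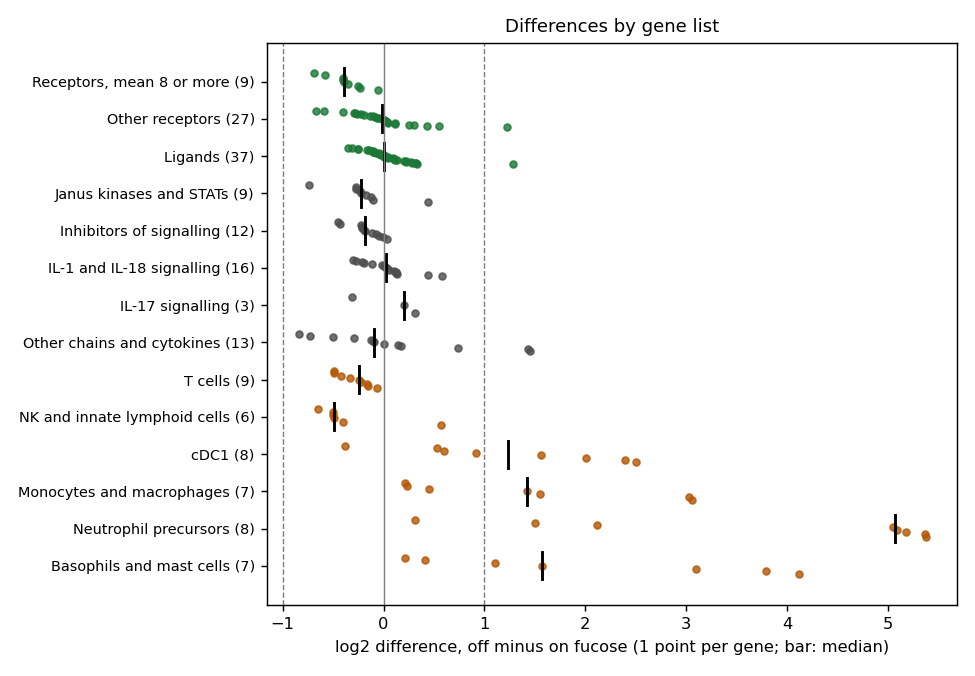
Difference in log2 intensity (off minus on fucose) of each gene, by list, with 1 point per gene, a black bar at the median and the number of genes measured in brackets. Receptors with a mean of at least 8 (median -0.40) and T cell genes (median -0.24) lie left of 0 as deposited, a placing that T cell centring changes for Il4ra, Il6ra and, by construction, 4 of the 9 T cell genes, and loess for Il4ra and 1 T cell gene, whereas neutrophil precursor genes (median 5.07) lie far to the right.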

How the data were processed

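The deposited intensities, on the linear scale, were made with RMA, a method that summarises the probes of a probe set, as the submitters' processing notes name it. Its version, software and settings and the build are not given in the sources used here. Usually RMA returns log2 values, but the deposited intensities reached 9512, so log2 was taken. Symbols came from the platform annotation (23521 of 41345 probe sets had 1), and all 78 members matched a RefSeq table (GRCm38.p6) by Entrez ID with the same symbol.

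With 1 array per group no test was made. Members and lists were chosen with earlier results of these data known. Values are given for members with a mean in the top 40%, those at least 2-fold apart, those 1.5-fold apart with a mean at or above the median (2.88), their partners, and the 3 largest differences among the others of each role. Further members are named by role. The group with a mean of at least 8 was made after the values were seen. Of the members, 31 passed the median of all genes. Alternatives were the mean of probe sets, quantile normalisation, loess (span 0.3), median and T cell centring, an offset of 16, the filter at the median and folds of 1.5 and 3. Python 3.11.15, pandas 2.3.3 and statsmodels 0.14.6 were used, and the code was tested on simulated data.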

Additional observations from a re-analysis of the deposited data

How the results depend on the processing

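The counts at 2-fold (1 ligand and 1 receptor higher, 0 of either lower) were the same with the mean of probe sets, quantile normalisation, loess, median centring, T cell centring and the median filter. With an offset of 16, which shrinks the differences of dim genes by construction (Il1b to 0.53 and Il23r to 0.46), and at 3-fold, the higher counts were 0 and 0. At 1.5-fold, 3 receptors were lower as deposited, and none with T cell centring. T cell centring subtracts 1 value from every difference, which moved the medians to 0.25 (ligands), 0.15 (receptors) and -0.15 (receptors with a mean of at least 8). The median of receptors was -0.09 over all 36 and -0.24 over the 24 past the filter, where fewer genes count. The split of 2-fold calls over all genes, 82.4% of them higher, became 94.3% with T cell centring and 91.3% with the offset. Over 25 single members, 29 of 150 alternative values moved by more than 0.23, the robust SD of all differences, and 7 changed sign. The T cell list median of -0.24 is larger in size than 0.23, so T cell centring moved all 25 by construction. The other moved values were those of Il1b, Il23r, Il18rap and Il17rb with the offset. No paired analysis was possible because there is only 1 array in a group, which also leaves none to omit. Low signal limits the ligand values.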
